A study of Mus musculus with 2 samples.

Results

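The 36 genes described here include those of the glucose carriers and enzymes of glycolysis and the kinases that hold back pyruvate dehydrogenase. The 36 genes also take in the oxygen sensing pathway of the cell and a few genes that low oxygen turns on. They were chosen by name, and all 36 of 36 were matched by NCBI gene number among the 41709 genes of the deposited tables. Polyadenylated RNA of whole lung was compared between 1 library from control C57BL/6 mouse embryos and 1 library from C57BL/6 embryos with the genotype label Prmt5 knockdown. Both were taken at E14.5, and 7 lungs were pooled for each. Shh and Prmt5 both stand in the title of the knockdown sample, but the labels do not say by which promoter, in which cells or by what means Prmt5 was lowered. With 1 library per genotype there is no spread between replicates and no test across samples, so every difference below is a difference between these libraries.

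Glycolysis splits glucose into pyruvate in a chain of steps, and most steps can be run by several isoenzymes from separate genes. Nearly every cell carries the ubiquitous forms, while liver, muscle, red blood cells and neurons add or substitute forms of their own. Low oxygen stabilises the HIF factors, which raise carriers, glycolytic enzymes and the kinase Pdk1, and the embryonic lung itself grows in low oxygen before birth.

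Counted reads came to 22581490 (control) and 25829281 (knockdown). Ratios are knockdown over control, scaled to library size by the trimmed mean of M values, with an exact 95% counting interval that covers counting error only. A gene was called higher or lower if it differed by 1.5-fold or more with an interval that left out 1, and was measured if either library had 50 reads or more. The tissue label was checked against marker lists of 10 genes each. Of the lung epithelium list 9 of 10 genes were lower (median log2 ratio -2.22), and together they took 0.175% of control and 0.0435% of knockdown reads. Of the lung mesenchyme list 6 of 10 were lower (median -0.97), with shares of 0.739% and 0.746%. Most of those reads came from Col1a1 (84024 and 113582) and Col3a1 (53764 and 66374), which did not pass the rule. All 10 liver genes were higher, with shares of 0.00593% and 0.992%, as were all 10 heart genes (0.0103% and 0.425%), all 10 skeletal muscle genes (0.00289% and 0.101%), all 10 red blood cell genes (0.653% and 2.37%) and all 10 neuron genes (0.00357% and 0.0121%). Macrophage genes were higher too (10 of 10, median 1.23), and of the endothelial list 1 was higher and 4 were lower. The part of these tissues in the results below was not tested. In whole-organ RNA, fewer cells of a type and less RNA per cell cannot be told apart.

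Most genes of glycolysis were higher in the knockdown library, and the sizes differed widely between isoenzymes of the same step. All 36 genes were measured. Of these 22 were higher and 0 lower, and the other 14 missed the rule, against 20.7% higher and 12.3% lower among the 14569 measured genes. The median log2 ratio of the 36 was 1.02, beside -0.01 over all measured genes. By class, 8 of 13 ubiquitous enzymes and carriers were higher (median 0.70), 2 of 3 liver forms (median 5.99), 4 of 5 muscle forms (median 2.86) and 2 of 3 neural forms (median 1.06). The exceptions within the tissue classes were Pfkl, Hk2 and Eno2. The ubiquitous class holds Ldhb and Pfkp, which also mark particular tissues, and Gapdh, whose reads are split with copies. Without these 3 genes, 5 of 10 were higher (median 0.55). The 10 still hold Slc2a1, Hk1 and Aldoa, which were all higher and also serve red blood cells, brain or muscle. They are therefore not a set free of tissue forms. Scaling by total counts moved the median of all measured genes to -0.12 and that of the 36 genes to 0.91.

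**Figure D1:**
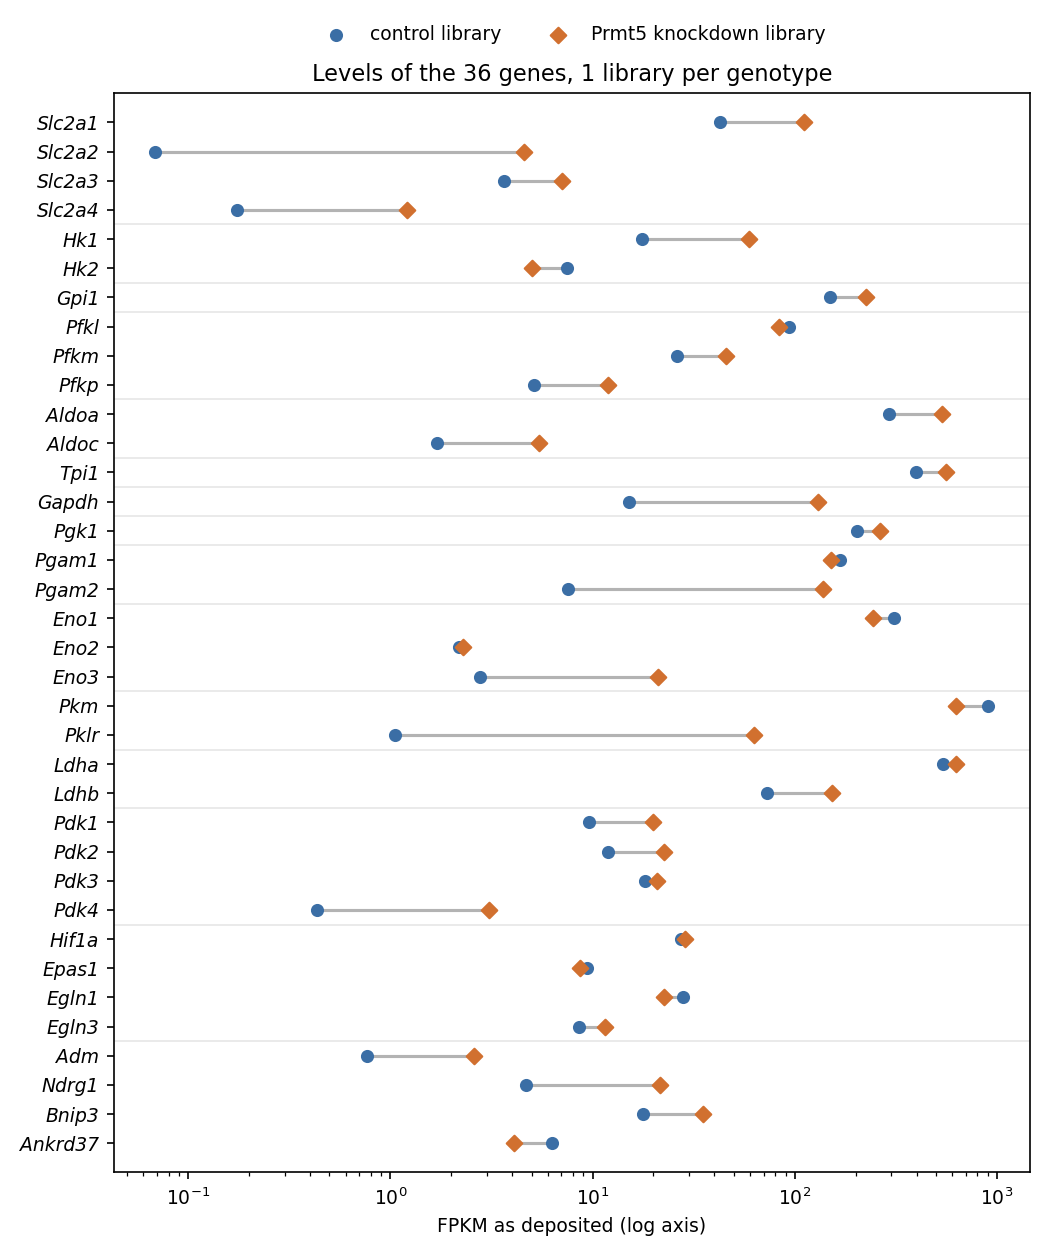
Level of each of the 36 genes in the control library (circles) and the Prmt5 knockdown library (diamonds), as deposited FPKM on a log axis, with grey lines between steps. The forms typical of liver and muscle, such as Slc2a2, Pklr, Pgam2 and Eno3, show the long gaps, and the abundant forms Pkm, Ldha, Eno1 and Pgam1 show short ones.

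**Figure D2:**
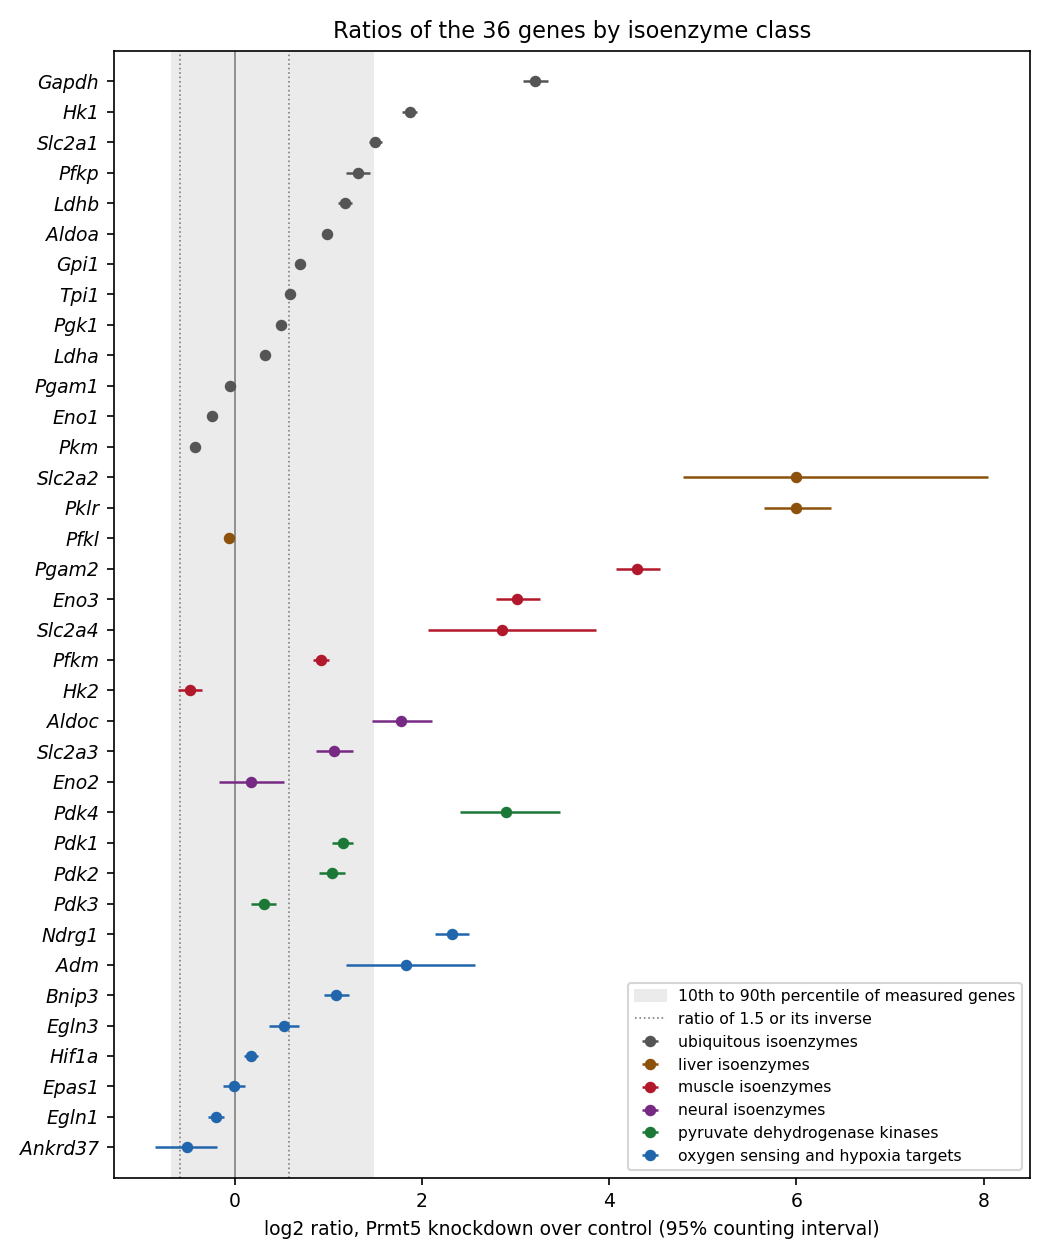
Log2 ratio of knockdown over control with the 95% counting interval for each gene, coloured by class, against the range from the 10th to the 90th percentile of all measured genes (-0.67 to 1.47). Liver and muscle forms reach the right of the plot, and 3 of them, Pfkl, Hk2 and Pfkm, lie inside the shaded range.

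All 4 glucose carriers were higher, beside 20.7% of all measured genes. Slc2a1 (NCBI gene 20525, chromosome 4, 119108745 to 119137330 on GRCm38.p6), the GLUT1 carrier that supplies basal glucose to most cells and to red blood cells, had 2408 and 7236 reads in the control and knockdown library, or 42.4 and 111.4 FPKM (reads per gene length and library total). This was 2.83-fold higher (2.71 to 2.97-fold). Slc2a2 (gene 20526, chromosome 3, 28697903 to 28728361), the low-affinity carrier of hepatocytes and pancreatic beta cells, had 4 and 304 reads, so the control was close to empty and the ratio of 64.0-fold has a wide interval (27.7 to 265-fold). Slc2a3, the high-affinity carrier of neurons, went from 315 to 698 reads (log2 1.06, 0.87 to 1.26). Slc2a4, the insulin-responsive carrier of muscle and fat, went from 13 to 103 reads (log2 2.86, 2.06 to 3.86). Per length Slc2a1 remained the main carrier in both libraries, at 91.6% and 89.6% of the summed FPKM of the 4 carriers. The shares of Slc2a2 were 0.149% and 3.68%. No scaling of the libraries can move a ratio to Slc2a1 of the same library. By that ratio Slc2a2 was 22.5-fold higher in the knockdown library (log2 4.49, 3.15 to 5.84). Slc2a4 was 2.55-fold higher (log2 1.35, 0.53 to 2.17) and Slc2a3 1.36-fold lower (log2 -0.44, -0.64 to -0.24). The values of Slc2a2 and Slc2a4 rest on 4 and 13 control reads, so their intervals are wide.

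The hexokinases, which trap glucose in the cell, moved apart. Hk1 (gene 15275, chromosome 10, 62268855 to 62379920), the form of brain and red blood cells and of most resting tissues, had 1541 and 5973 reads and was 3.66-fold higher (log2 1.87, 1.79 to 1.95). Hk2 (gene 15277, chromosome 6, 82725025 to 82774454), the inducible form of muscle, had 1083 and 825 reads, a log2 ratio of -0.48 (-0.61 to -0.34) that did not pass the rule and passed it as lower with total counts (-0.59). Hk2 thus took 29.9% (28.3% to 31.6%) of the hexokinase level per length in control lung and 7.73% (7.22% to 8.27%) in knockdown lung. These levels use the gene lengths behind the deposited FPKM, which run from 0.375 to 1.52 times the annotated exons over the 36 genes, so shares within a step depend on the lengths while changes of a ratio between the libraries do not. With annotated exon lengths Hk2 took 50.1% and 16.5%. The red blood cell list was higher in all 10 genes in that library, and its part in the value of Hk1 was not tested.

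In the upper steps the ubiquitous forms were higher and the main phosphofructokinase was not. Gpi1, which isomerises glucose 6-phosphate, had 9768 and 16833 reads (1.63-fold higher, log2 0.70). Phosphofructokinase, the committing step, is built from 3 genes. Pfkl, named for liver, was the most abundant in both libraries at 94.1 and 83.9 FPKM, with 7213 and 7354 reads (log2 -0.06, -0.10 to -0.01). The muscle form Pfkm went from 1731 to 3479 reads (1.90-fold higher, log2 0.92), and the platelet form Pfkp from 652 to 1723 (2.49-fold higher, log2 1.32). The share of Pfkl in the step was accordingly 75.1% and 59.2%, and that of Pfkm 20.8% and 32.4%. With annotated exon lengths Pfkl took 65.6% and 48.5%, and Pfkm 31.5% and 45.8%. Unlike the other liver forms, Slc2a2 and Pklr, Pfkl was abundant in the control library.

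Aldolase cleaves fructose 1,6-bisphosphate, and triosephosphate isomerase interconverts the products. Aldoa (gene 11674, chromosome 7, 126795234 to 126800994), the form of muscle and most other tissues, had 10138 and 21345 reads (1.99-fold higher, log2 0.99, 0.96 to 1.02). Aldoc, the brain form, had 104 and 379 reads (log2 1.78, 1.46 to 2.11) and went from 0.584% (0.477% to 0.709%) to 1.01% (0.911% to 1.12%) of the Aldoa level per length. Tpi1 had 14422 and 23090 reads and stood at the edge of the rule (1.51-fold, log2 0.59). It did not pass with total counts (0.49), with FPKM at a pseudocount of 0.1 (0.49) or 1 (0.48), or with totals that left out the marker genes of other tissues (0.53).

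Gapdh, the oxidising step and a common reference gene, had the highest ratio of the ubiquitous class, and its count cannot be read alone. Its reads numbered 528 (control) and 5190 (knockdown), or 15.1 and 129.8 FPKM, a log2 ratio of 3.21 (3.08 to 3.34). In both libraries this was below its neighbours in the pathway, Tpi1 (399 and 558 FPKM) and Pgk1 (202 and 265 FPKM). Transcripts of 93 annotated mouse genes, mostly unnamed, match Gapdh over at least 200 bases at 95% identity or more, and 86 of them have rows in the tables. These rows held 16991 control and 13097 knockdown reads, which is 97.0% and 71.6% of the reads of Gapdh and its copies together. The copies Gm12033 (8159 and 6277 reads) and Gm13394 (7096 and 4613 reads) held most of them. Adding the copies gave 17519 and 18287 reads and a log2 ratio of -0.02 (-0.05 to 0.01). Of the other genes only Eno1 had copies with over 2% of its reads. How the authors treated reads that align to several places is not given in the sources used here, and why the split differed between the libraries was not tested.

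**Figure D3:**
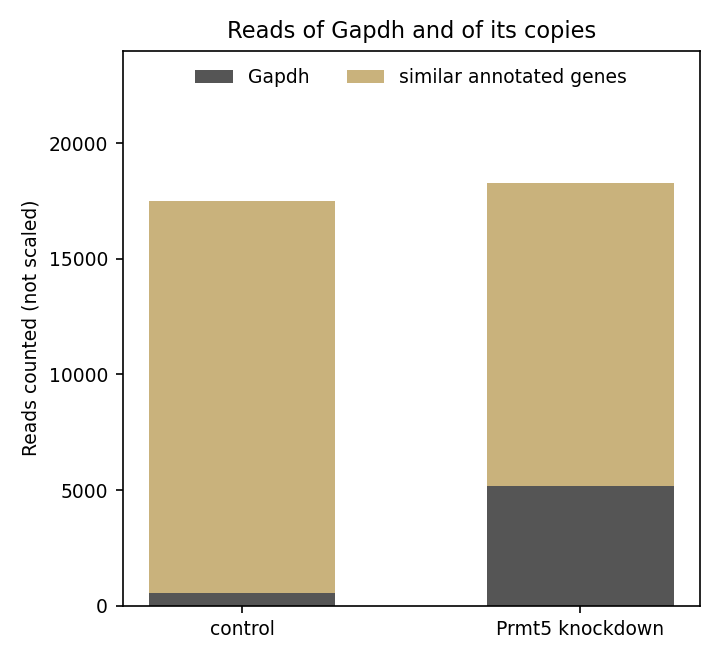
Reads counted for Gapdh and for the 86 similar annotated genes with rows in the tables, per library and not scaled. The sums are 17519 (control) and 18287 (knockdown), whereas the Gapdh part alone is 528 and 5190.

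Below Gapdh the abundant forms Pgk1, Pgam1, Eno1 and Pkm each differed by less than 1.5-fold between the libraries. Pgk1, which yields the first ATP of the pathway, had 8337 and 12497 reads (log2 0.50, 0.46 to 0.54, not past the rule). Pgam1, the ubiquitous phosphoglycerate mutase, had 6913 and 7101 reads (log2 -0.05, -0.09 to 0.00). Eno1, the ubiquitous enolase, had 16512 and 14820 reads (log2 -0.24, -0.27 to -0.21, or -0.19 with its copies added). Pkm, which encodes the pyruvate kinases of muscle and of proliferating cells, had the highest level of the 36 in the control library and was level with Ldha in the other, at 903 and 623 FPKM (47483 and 37504 reads, log2 -0.42, -0.44 to -0.40). The summed FPKM of the enolases in the knockdown library was 0.846 times that of the control, and that of the pyruvate kinases 0.759 times. With annotated exon lengths these were 0.989 and 0.816 times. The same sum was 1.65 times the control for the mutases, 1.85 times for the aldolases and 2.57 times for the hexokinases. Annotated exon lengths gave 1.77, 1.85 and 2.02 times. FPKM is scaled by library total only, without the trimmed mean factors of 1.04 and 0.963. These sums are therefore not on the scale of the log2 ratios.

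The muscle and liver forms of the lower steps were much higher in the knockdown library. Pgam2 (gene 56012, chromosome 11, 5801637 to 5803796), the mutase of skeletal and heart muscle, had 154 and 3222 reads, or 7.53 and 137.7 FPKM, and was 19.7-fold higher (log2 4.30, 4.07 to 4.55). Its share of the mutase level per length went from 4.31% (3.67% to 5.02%) to 47.8% (46.8% to 48.9%), close to that of Pgam1. With annotated exon lengths the Pgam2 share was 4.99% and 51.7%. Eno3 (gene 13808, chromosome 11, 70653125 to 70662513), the muscle enolase, had 166 and 1430 reads and was 8.11-fold higher (log2 3.02, 2.79 to 3.26). It reached 8.65% of the Eno1 level (8.19% to 9.14%) from 0.902% (0.769% to 1.05%). With annotated exon lengths the Eno3 share of the enolases was 2.99% and 22.8%, in place of 0.887% and 7.90%. Eno2, the neuronal enolase, had 131 and 157 reads (log2 0.18, -0.17 to 0.52), although all 10 neuron markers were higher.

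Pklr (gene 18770, chromosome 3, 89136122 to 89146815) encodes the pyruvate kinases of liver and of red blood cells from separate promoters. It had 66 and 4485 reads and was 63.6-fold higher (log2 5.99, 5.65 to 6.38). Against Pkm of the same library it was 85.4-fold higher, from 0.117% of the Pkm level per length (0.0904% to 0.149%) to 10.1% (9.75% to 10.4%). With annotated exon lengths its share of the step was 0.214% and 15.6%, in place of 0.117% and 9.14%. Of its exons 22.0% are overlapped by Hcn3 in the annotation. Gene counts do not separate the liver transcript from that of red blood cells. The median log2 ratios of the liver, skeletal muscle, heart and red blood cell marker lists were 7.40, 5.27, 6.69 and 4.41, and the part of those tissues in the values of Pklr, Slc2a2, Pgam2 and Eno3 was not tested.

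**Figure D4:**
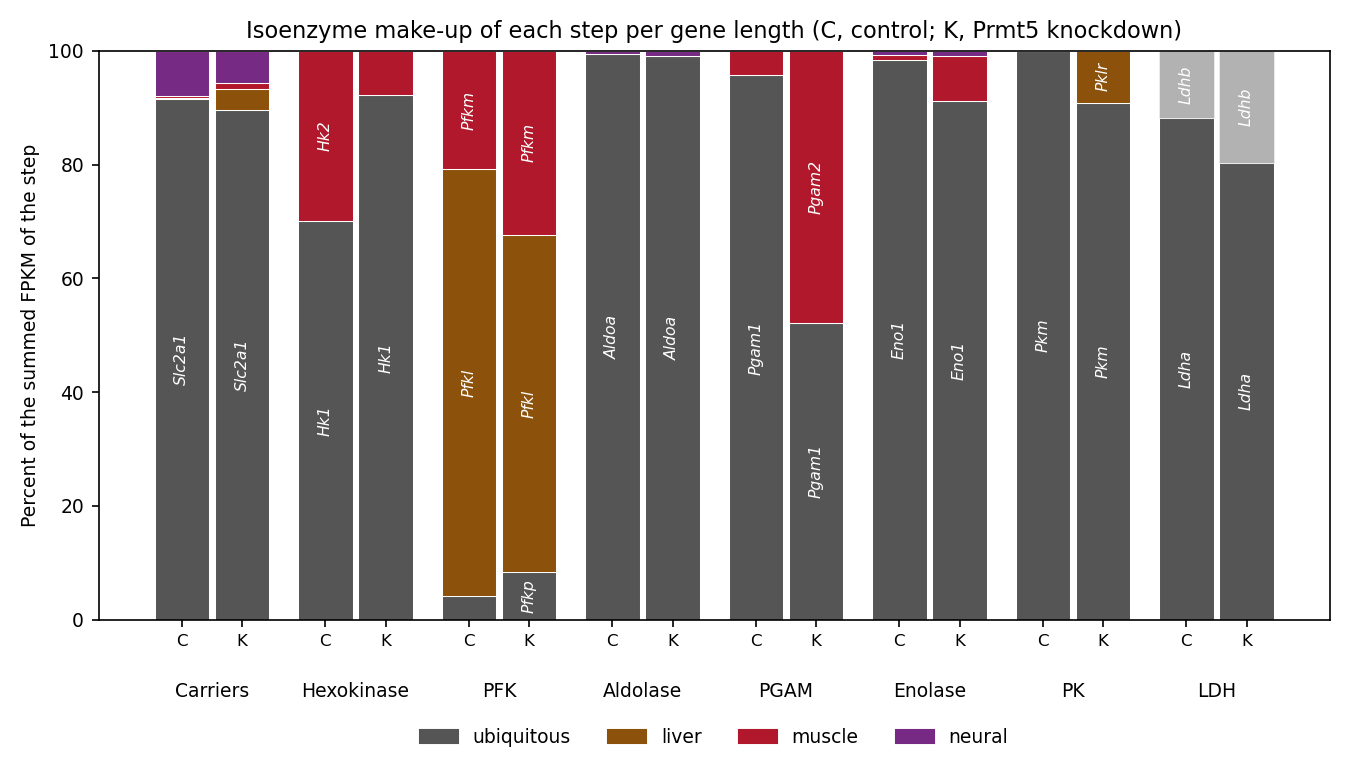
Percent of the summed FPKM of each step held by each isoenzyme in the control (C) and Prmt5 knockdown (K) library, coloured by class, with Ldhb in lighter grey. Pgam2 grows from 4.31% to 47.8% of its step and Pklr from 0.117% to 9.14%, whereas Hk2 shrinks from 29.9% to 7.73%.

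The promoters of the mutase pair are shown because one gene was higher by over an order of magnitude and the other was level. Each run holds the 250 bases before the start of the gene from RefSeq on GRCm38.p6, read 5′ to 3′ on the strand of the gene, with matches to the core of the hypoxia response element (ACGTG or GCGTG, on either strand) in capitals. Pgam1 lies at chr19:41911621-41911870 on the plus strand and Pgam2 at chr11:5803797-5804046 on the minus strand.
Pgam1: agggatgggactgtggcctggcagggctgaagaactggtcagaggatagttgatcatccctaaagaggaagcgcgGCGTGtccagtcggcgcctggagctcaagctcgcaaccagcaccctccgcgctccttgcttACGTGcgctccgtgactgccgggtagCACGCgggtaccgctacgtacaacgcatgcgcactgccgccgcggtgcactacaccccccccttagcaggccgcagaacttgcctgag
Pgam2: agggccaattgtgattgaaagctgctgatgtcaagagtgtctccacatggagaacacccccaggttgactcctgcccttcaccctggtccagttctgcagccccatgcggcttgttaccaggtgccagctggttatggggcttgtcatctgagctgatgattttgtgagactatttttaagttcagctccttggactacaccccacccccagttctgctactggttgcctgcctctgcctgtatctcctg
The level gene Pgam1 holds 3 cores and the higher gene Pgam2 holds none. The GC content of the windows, with the 50 bases after the start included, is 65.0% and 53.3%.

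Lactate dehydrogenase regenerates NAD from pyruvate. Ldha, the main form, had 20004 and 26555 reads (log2 0.32, 0.30 to 0.35, not past the rule). Ldhb (gene 16832, chromosome 6, 142490249 to 142507957), the form of heart and red blood cells, had 2071 and 4979 reads (2.27-fold higher, log2 1.18, 1.11 to 1.26). Ldhb went from 11.9% (11.4% to 12.4%) to 19.7% (19.2% to 20.1%) of the summed level of the pair, or from 17.9% to 28.3% with annotated exon lengths.

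Of the 4 pyruvate dehydrogenase kinases, which keep pyruvate out of the mitochondrial oxidation route, 3 were higher, beside 20.7% of all measured genes. The HIF-induced Pdk1 (gene 228026, chromosome 2, 71873215 to 71903858) had 945 and 2228 reads (2.22-fold, log2 1.15, 1.04 to 1.26) and the widely expressed Pdk2 had 623 and 1360 (2.06-fold, log2 1.04). Per length Pdk2 stood at 123% and 114% of Pdk1, and the interval of that change included 0 (log2 -0.11, -0.29 to 0.06). Pdk4, the fasting-induced kinase of heart and skeletal muscle, had 34 and 273 reads (7.48-fold, log2 2.90, 2.40 to 3.48). Pdk3 had 817 and 1073 reads (log2 0.31, not past the rule) and went from the first to the second place among the kinases per length (18.1 and 20.8 FPKM).

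Other genes of sugar metabolism were higher or did not pass the rule. Of 32 further genes of glycolysis, gluconeogenesis and pyruvate use, 26 were measured, 13 were higher and none was lower, beside 20.7% and 12.3% of all measured genes, and their median was 0.51. Gckr, a regulatory protein of liver sugar metabolism, had 3 and 231 reads (62.7-fold, 24.5 to 355-fold). Fbp1, of gluconeogenesis, had 10 and 93 reads (log2 3.07). Fbp2, the muscle form, had 0 and 32 reads. Taking 3 control reads as the floor made it 10.1-fold higher, and its counting interval began at 7.72-fold. Fbp2 was below the read minimum and was picked after its value was seen. The lactate carriers Slc16a1 (log2 1.52) and Slc16a3 (1.12), the pyruvate carrier subunit Mpc2 (1.19), pyruvate carboxylase Pcx (1.01), the pyruvate dehydrogenase subunit Pdhb (0.82) and the red blood cell enzyme Bpgm (0.85) were higher too.

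The genes of the oxygen sensing group, HIF subunits and prolyl hydroxylases, each differed by less than 1.5-fold. Hif1a, the widely expressed alpha subunit, had 2708 and 3245 reads (log2 0.18, 0.10 to 0.25). Epas1, the endothelial HIF alpha subunit that also acts in surfactant cells, had 1135 and 1196 (log2 -0.01, -0.13 to 0.11). The prolyl hydroxylase Egln1, which marks HIF for breakdown, had 2201 and 2030 (log2 -0.20, -0.29 to -0.11), and Egln3 had 520 and 793 (log2 0.52, 0.36 to 0.69). None of the 4 passed the rule. The summed FPKM of the group, without the trimmed mean factors, was 73.3 and 71.4. Transcript counts do not report the stability of HIF proteins, which oxygen acts on.

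Of the 4 genes grouped here as hypoxia targets, 3 were higher, beside 20.7% of all measured genes. Ndrg1 (gene 17988, chromosome 15, 66929318 to 66969641), a stress-induced gene of differentiating cells, had 304 and 1612 reads (log2 2.32, 2.14 to 2.50). Adm, the vasodilator peptide adrenomedullin, had 24 and 92 reads (3.56-fold, log2 1.83, 1.19 to 2.57). Bnip3 (gene 12176, chromosome 7, 138890836 to 138909506), a receptor for removal of mitochondria, had 706 and 1590 (2.12-fold, log2 1.09, 0.96 to 1.22), and 22.3% of its exons are overlapped by Gm45507. Ankrd37 (gene 654824, chromosome 8, 45996908 to 46000414), a HIF target, had 182 and 135 reads (log2 -0.51, -0.85 to -0.19). It did not pass the rule and passed it as lower with total counts (-0.62), and 26.4% of its exons are overlapped by Ufsp2 and Lrp2bp.

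Among 33 measured genes of a wider hypoxia list, 8 were higher and 2 lower (median log2 ratio 0.27), beside 20.7% and 12.3% of all measured genes. The highest was Tfrc (2054 and 9347 reads, 4.29-fold, log2 2.10), the transferrin receptor that developing red blood cells carry in quantity, followed by the clock-linked repressor Bhlhe41 (60 and 165 reads, log2 1.37). Vegfa, the angiogenic ligand that lung epithelium makes, had 4520 and 2723 reads (1.76-fold lower, log2 -0.82, -0.88 to -0.75). Arnt2, a partner subunit of HIF, had 2205 and 908 reads (2.57-fold lower, log2 -1.36), and the general partner Arnt had 1976 and 1818 (log2 -0.20). The lung epithelium markers were lower in the same library (9 of 10), and their part in the value of Vegfa was not tested.

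**Figure D5:**
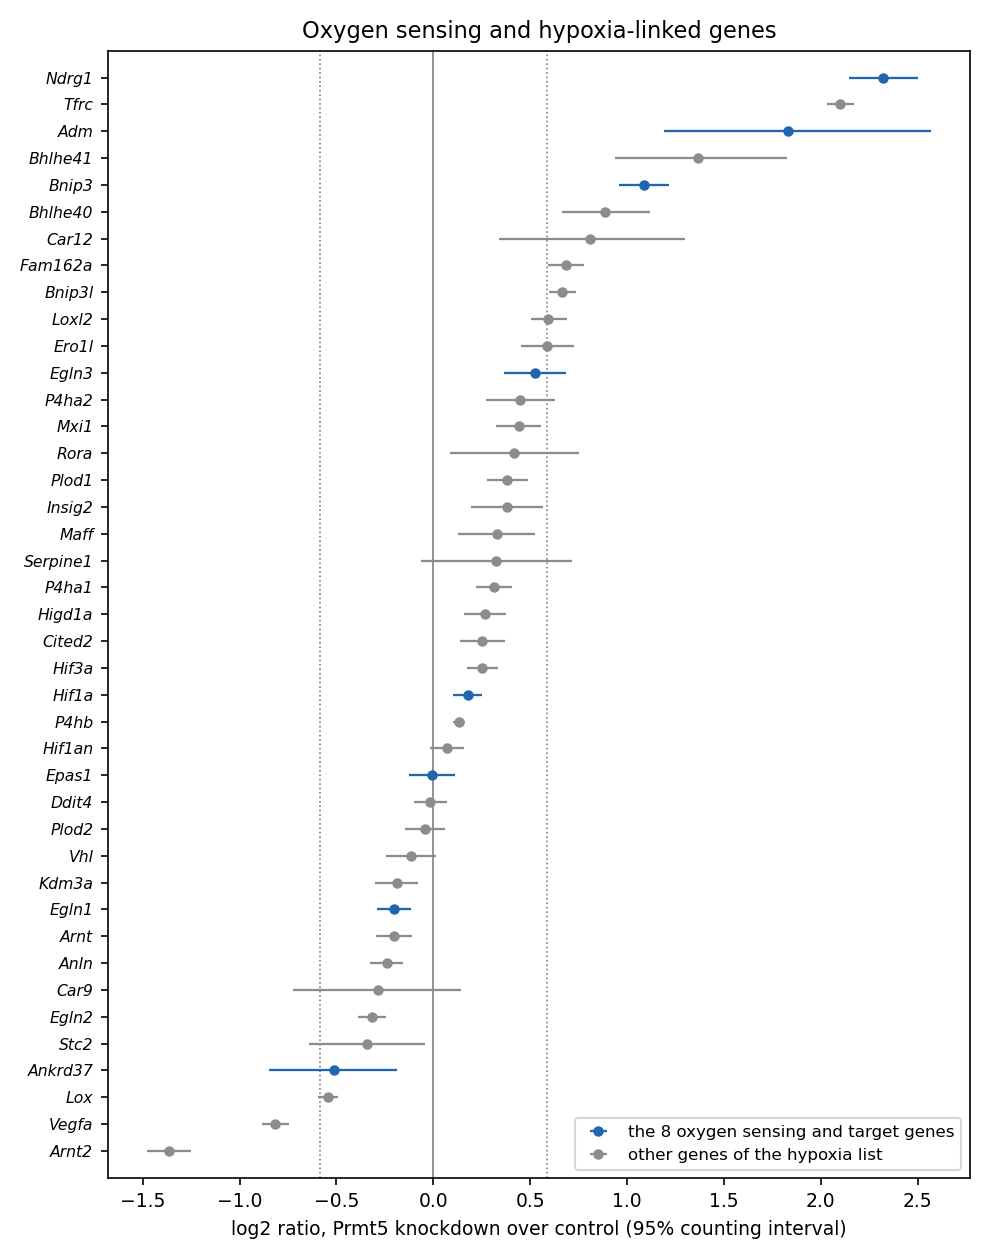
Log2 ratio of knockdown over control with the 95% counting interval for the 8 oxygen sensing and target genes (blue) and the 33 measured genes of the wider list (grey), in order, with dotted lines at a ratio of 1.5 and its inverse. Ndrg1, Tfrc and Adm stand at the top, Vegfa and Arnt2 at the bottom, and most of the others lie between the dotted lines.

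The promoters of 2 higher targets and of Ankrd37 are shown since all of them carry the hypoxia element core while their ratios differed. Slc2a1 lies at chr4:119108495-119108744 on the plus strand. Bnip3 lies at chr7:138909507-138909756 and Ankrd37 at chr8:45999851-46000100, both on the minus strand. Window size and capitals are as above. The Ankrd37 window precedes a start that lies inside the gene span given above, and not the end of that span at 46000414.
Slc2a1: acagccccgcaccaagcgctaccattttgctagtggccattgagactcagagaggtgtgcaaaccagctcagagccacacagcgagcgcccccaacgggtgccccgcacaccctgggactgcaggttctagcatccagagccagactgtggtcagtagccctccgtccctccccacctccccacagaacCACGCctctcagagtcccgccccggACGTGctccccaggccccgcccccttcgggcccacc
Bnip3: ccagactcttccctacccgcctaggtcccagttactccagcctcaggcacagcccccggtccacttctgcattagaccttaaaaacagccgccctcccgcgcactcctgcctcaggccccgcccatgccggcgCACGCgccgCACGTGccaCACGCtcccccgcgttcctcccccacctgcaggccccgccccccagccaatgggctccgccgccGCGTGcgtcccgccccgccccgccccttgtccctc
Ankrd37: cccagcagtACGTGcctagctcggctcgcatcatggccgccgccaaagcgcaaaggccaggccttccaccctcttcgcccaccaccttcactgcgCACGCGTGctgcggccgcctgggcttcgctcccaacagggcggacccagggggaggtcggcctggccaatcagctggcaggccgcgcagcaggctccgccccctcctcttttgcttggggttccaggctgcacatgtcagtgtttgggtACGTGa
The cores number 2 in Slc2a1, 5 in Bnip3 and 4 in Ankrd37, and a palindromic CACGTG, which is also an E-box, counts as 2. RefSeq promoters on GRCm38.p6 were found for 32 of the 36 genes, and 26 of these (81.2%) held a core within 250 bases before and 50 after a start, beside 46.7% of all 27025 genes in that table. By promoter, 33 of 46 (71.7%) held a core, beside 43.8% of all 32851, and 10.9% held CACGTG, beside 7.15%. The median GC content was 58.3% in the promoters of these genes and 52.7% in all, and the core itself holds CG. A core was present for 14 of 19 higher genes and for 12 of the 13 that did not pass the rule. A match of letters is a description of the window and not a binding site.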

How the data were processed

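The 2 whole-lung libraries were made with a NEBNext Ultra kit (labels' protocols). Per the submitters' processing notes, the tools were HTSeq 0.6.1, TopHat2 2.0.12 and Bowtie2 2.2.3, and the build was mm10 (GRCm38). For annotation, strand setting and multiply aligned reads, the choice is not given in the sources used here. The authors deposited raw read counts per gene. The deposited FPKM values came back as reads per length and library total, with whole gene lengths (within 0.001 bp) in 100% of 22831 genes with reads in both libraries.

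Counts were scaled with TMM factors of 1.04 and 0.963 from edgeR 4.0.16 in R 4.3.3, with a prior count of 0.5. Intervals are exact Clopper-Pearson intervals of 2 counts given their sum. PCR copies are not independent molecules, so intervals and floors cover counting error only. The same interval, rescaled by gene lengths, was used for levels of isoenzymes within a library, compared as FPKM. No test across samples was possible, and no p-value is given. The call rule was tried on simulated counts that held counting error only, so that trial does not cover spread between embryos. Copies were found by BLAST+ 2.17.0 among GENCODE M21 transcripts. The members and lists were chosen with earlier results of these data known. All 36 members are named. Of the other listed genes, the 12 past the rule with interval bounds farthest from 1 are named, with Vegfa and Arnt among those added by name, except for items that are not reported here. The threshold of 200 bases for copies was set after seeing the data. Alternatives covered scaling by total counts, DESeq2 1.42.0 size factors or totals without marker genes, prior count, FPKM with 2 pseudocounts, read minimum, ratio, interval level, mean in place of median, read ratios without length, annotated exon lengths, and added copies.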

Additional observations from a re-analysis of the deposited data

How the results depend on the processing

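Of the 22 higher genes, Gapdh alone turned direction under the settings tried, to a log2 ratio of -0.022 with all similar genes added, an alternative chosen after seeing the data. Epas1, not past the rule, had a log2 ratio of 0.02 with DESeq2 size factors. None of the 36 was lower with the main settings. With total counts 2 were lower (Hk2 and Ankrd37), with FPKM at a pseudocount of 0.1 there was 1 (Ankrd37), and at the lower ratio tried there were 3 (Hk2, Pkm and Ankrd37). At a ratio of 2, 5 of the 13 ubiquitous forms were higher in place of 8, and 703 of all measured genes were lower in place of 1795. The lower ratio gave 3560 lower genes, and a minimum of 200 reads gave 1956 higher genes in place of 3020. Leaving Gapdh out gave 21 higher genes of 35, and leaving out Gapdh, Ldhb and Pfkp gave 5 ubiquitous forms. Annotated exon lengths, chosen after seeing the data as was that omission, moved the Hk2 share of its step from 29.9% to 50.1% in the control. With FPKM at a pseudocount of 1 the liver median was 2.38 in place of 5.99 and the muscle median 0.91 in place of 2.86. No paired analysis was possible because each group has 1 library, and for the same reason no library could be left out. Depth limits Slc2a2, Slc2a4, Adm and Pdk4, which had under 50 control reads.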
